A study of Mus musculus with 24 samples.

Results

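The genes described here are 10 that serve the entry of fatty acids into cells and their binding there, chosen by name from the 55421 genes of the count and FPKM tables. They are Cd36, the transporters Slc27a1, Slc27a2 and Slc27a4, the binding proteins Fabp1, Fabp2, Fabp4 and Fabp5, and the lipases Lpl and Lipc. All 10 were found, and all 10 passed the filter on low counts that left 13847 genes for testing. They were measured in hepatocytes that had been isolated by a 2-step liver perfusion from 24 male C57BL/6J mice, with 1 library per animal. Mice received vehicle or encapsulated rapamycin (eRapa, 42 ppm), an inhibitor of the kinase mTOR, in the food from 4 months of age. From 18 months and for 9 weeks, 8 vehicle mice (ND+veh) were kept on normal diet. High-fat diet was given to 7 vehicle mice (HFD+veh) and to 9 rapamycin mice (HFD+eRapa). The high-fat diet took 60% of its calories from fat. The study describes 3 cohorts, none of them on normal diet with rapamycin, so each difference tied to eRapa refers to mice on high-fat diet. Each group enters 2 of the 3 comparisons below, so an animal that stands apart weighs on both of them.

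A fatty acid can reach a hepatocyte as free acid bound to albumin or inside a lipoprotein. Lipases on the vessel wall free it from triglyceride, CD36 and the fatty acid transport proteins of the SLC27 family aid its passage across the membrane, and small fatty acid binding proteins carry it through the cytoplasm. Several of these genes are known from cells other than hepatocytes. FABP4 marks adipocytes and is made by macrophages and capillary endothelium, FABP5 and LPL are made by macrophages, and CD36 is abundant on macrophages and endothelial cells. FABP1, SLC27A2 and hepatic lipase (LIPC) are products of the hepatocyte itself.

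Libraries held 17.7 to 25.9 M counts (M, 1000000). Hepatocyte markers summed to between 57300 and 170000 counts per M counts (CPM) in all libraries, over the 9 of 10 listed genes analysed here, and none of them was at 0. Markers of other liver cells were present as well and differed between groups. The summed level of 16 macrophage markers ran from 52.6 to 1590 CPM in ND+veh, from 200 to 6280 CPM in HFD+veh and from 20.1 to 1250 CPM in HFD+eRapa. For 16 endothelial markers the ranges were 140 to 775, 203 to 1230 and 112 to 570 CPM, and for 10 stellate cell markers 30.5 to 250, 36.0 to 544 and 21.0 to 97.5 CPM. No gene of these 3 lists was at 0 in every library. Adipocyte markers reached at most 0.158 CPM and enterocyte markers at most 0.756 CPM in any library, with Alpi and Sis at 0 throughout. In RNA from a mixed preparation, fewer cells of a type and less RNA per cell cannot be told apart. ND+veh replicate 4 had the lowest hepatocyte marker sum of its group and HFD+veh replicate 6 the highest macrophage and endothelial sums of all libraries, and results that rest on either animal are given with and without it.

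Levels of different genes were compared as FPKM (fragments scaled to a kilobase of transcript and to M fragments mapped), which takes gene length into account. Fabp1 was the most abundant member in each group. Its median was 5582 FPKM in ND+veh, 3919 in HFD+veh and 6601 in HFD+eRapa, and it made up between 90.5% and 98.6% of the summed FPKM of the 4 Fabp members in an animal. Slc27a2 came next, with medians of 459.8, 391.3 and 626.7 FPKM, and held 96.4% to 98.6% of the summed FPKM of the 3 Slc27 members. The ranges of Fabp1 and Slc27a2 did not overlap in any group. In ND+veh the order continued with Lipc (median 163.6 FPKM), Fabp2 (103.2), Cd36 (38.2), Fabp5 (33.4), Slc27a4 (9.96), Lpl (2.31), Fabp4 (2.17) and Slc27a1 (1.54). Ranges of neighbours in this order overlapped from Lipc downwards, for example 123.4 to 192.5 FPKM for Lipc against 59.8 to 162.2 for Fabp2. Lpl, Fabp4 and Slc27a1 therefore sat at the low end of ND+veh with no clear order among them.

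The order below Slc27a2 changed with diet. In HFD+veh, Fabp2 (141.8 FPKM) and Cd36 (125.7) stood above Lipc (95.6), and Lpl (33.3) and Fabp4 (20.2) stood above Fabp5 (11.3), Slc27a4 (7.44) and Slc27a1 (1.83). In HFD+eRapa the medians were 153.1 FPKM for Fabp2, 111.3 for Lipc, 61.6 for Cd36, 10.2 for Slc27a4, 7.03 for Fabp5, 5.23 for Fabp4, 3.54 for Lpl and 2.15 for Slc27a1. Ranges of neighbours in both orders overlapped, except those of Slc27a2 and Fabp2 in either group, of Slc27a4 and Slc27a1 in HFD+veh, and of Cd36 and Slc27a4 in HFD+eRapa. As ratios within an animal, Fabp4 exceeded Fabp5 in 0 of 8 ND+veh, 6 of 7 HFD+veh and 4 of 9 HFD+eRapa animals. Lpl exceeded Lipc in 1 HFD+veh animal, replicate 6, at 2.17 times the Lipc FPKM, while the median ratio was 0.0141 in ND+veh, 0.348 in HFD+veh and 0.0196 in HFD+eRapa. These ratios are descriptions and were not tested.

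**Figure D1:**
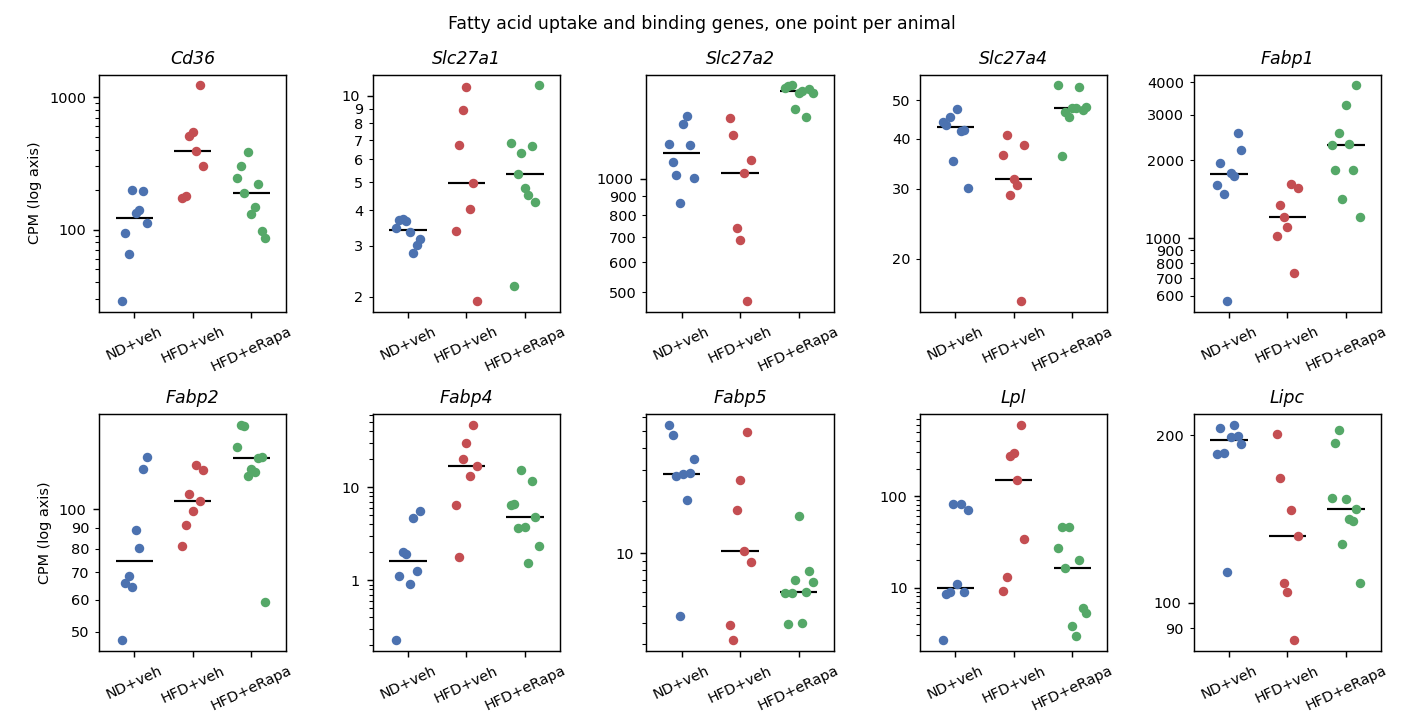
Level of each member in CPM on a log axis, with a point per animal and a black line at the group median, for ND+veh (n = 8), HFD+veh (n = 7) and HFD+eRapa (n = 9). Slc27a2 in HFD+eRapa lies between 1463 and 1772 CPM, while Lpl in HFD+veh spreads from 9.18 to 603.7 CPM.

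The first comparison, HFD+veh against ND+veh, asked how a high-fat diet late in life changed these genes. Cd36 and Fabp4 rose, by 3.92 and 8.81 times, and Lpl and Slc27a1 rose as well, with calls that depended on single animals. Lipc fell by a log2 fold change of 0.46. In all, 5 of the 10 members passed an adjusted p under 0.05 in edgeR (called), 4 higher and 1 lower, where 25.9% of all genes tested were called, 16.0% higher and 9.86% lower. The median log2 fold change was 0.03 over the members and 0.05 over all genes tested. In no member were the animals of both groups free of overlap, which held for 2.44% of all genes. Between the same groups 8 of 16 macrophage, 3 of 16 endothelial and 3 of 10 stellate cell markers were called higher and 2 of 9 hepatocyte markers lower.

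Cd36 (ENSMUSG00000002944, GRCm38 chromosome 5, 17781690 to 17888801, minus strand) encodes the membrane receptor also called fatty acid translocase. In ND+veh it had a lowest, median and highest level of 28.9, 122.7 and 198.5 CPM. In HFD+veh the corresponding levels were 174.5, 390.7 and 1228 CPM. The ND+veh median was exceeded by all 7 HFD+veh animals, and every ND+veh animal was exceeded by 5 of them. On the log2 scale the rise was 1.97 (SE 0.43, edgeR adjusted p = 0.00304). Without HFD+veh replicate 6, the highest animal, and ND+veh replicate 4 it was 1.61 (edgeR adjusted p = 0.00851). With the macrophage marker score as a covariate it was 0.95 (edgeR adjusted p = 0.0352), and with the endothelial score 1.21.

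Fabp4 (ENSMUSG00000062515, chromosome 3, 10204088 to 10208576, minus strand), which binds fatty acids in the cytoplasm of adipocytes and macrophages, was scarce in ND+veh, with 0.227, 1.59 and 5.55 CPM as lowest, median and highest level. In HFD+veh it had 1.76, 16.8 and 47.3 CPM. Of the 7 HFD+veh animals, 6 exceeded every ND+veh animal, and replicate 2 fell within the ND+veh range. Its rise, 3.14 on the log2 scale (SE 0.63, edgeR adjusted p = 0.0018), was the largest among the members. It became 2.67 (edgeR adjusted p = 0.00802) without the same 2 animals. With the macrophage score as a covariate it was 1.81 (edgeR adjusted p = 0.00521) and with the endothelial score 2.23. The 5 adipocyte markers, summed, were at or below 0.158 CPM in the same libraries.

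Lpl (ENSMUSG00000015568, chromosome 8, 68880491 to 68907448, plus strand) encodes lipoprotein lipase, which frees fatty acids from circulating triglyceride. It varied more within groups than any other member. The ND+veh animals had 2.67, 9.97 and 82.3 CPM as lowest, median and highest level, and the HFD+veh animals 9.18, 150.4 and 603.7 CPM. In ND+veh 3 animals (replicates 4, 6 and 8) lay between 71.2 and 82.3 CPM and the other 5 at 11.01 CPM or below. Of the HFD+veh animals, 4 exceeded all of ND+veh. Lpl differed by 2.52 on the log2 scale (SE 0.88, edgeR adjusted p = 0.0388). Without HFD+veh replicate 6 it was 1.84 (edgeR adjusted p = 0.141), and the call was also lost without any of ND+veh replicates 1, 2, 3, 5 and 7 or HFD+veh replicates 3 and 4, with adjusted p from 0.0656 to 0.0715. With the macrophage score as a covariate the log2 fold change was -0.16 (edgeR adjusted p = 0.829).

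Slc27a1 (ENSMUSG00000031808, chromosome 8, 71568882 to 71587302, plus strand), a fatty acid transport protein best known from muscle and fat, was the least abundant of the 3 Slc27 members. Its ND+veh levels stayed between 2.83 and 3.72 CPM, whereas HFD+veh levels ran from 1.93 through a median of 4.98 to 10.7 CPM. HFD+veh thus held 5 animals above and 1 below the whole ND+veh range. Its rise of 0.79 on the log2 scale (SE 0.29, edgeR adjusted p = 0.0493) was just past the threshold. It was past it in 3 of 15 fits that left out 1 library of either group, those without HFD+veh replicate 1, 5 or 7.

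Lipc (ENSMUSG00000032207, chromosome 9, 70798128 to 70952226, minus strand) encodes hepatic lipase, which hepatocytes secrete. It overlaps the predicted genes Gm25149 on the same strand and Gm3436 and Gm32017 on the opposite strand. Reads shared with the latter pair cannot be assigned where strand was not used, and those shared with Gm25149 could not be assigned by strand at all. Its levels were 113.3, 195.6 and 208.8 CPM in ND+veh and 85.6, 131.8 and 201.2 CPM in HFD+veh. In ND+veh 7 of the 8 animals lay at 184.6 CPM or above, and replicate 4 was far lower. Lipc differed by -0.46 on the log2 scale (SE 0.17, edgeR adjusted p = 0.0426). The call held in 3 of 15 fits without 1 library, those that left out ND+veh replicate 4 or HFD+veh replicate 1 or 2. Without ND+veh replicate 4 and HFD+veh replicate 6 the value was -0.47 (edgeR adjusted p = 0.0429).

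None of the remaining 5 members passed the threshold with diet. Fabp1 differed by -0.50 on the log2 scale (95% interval -1.01 to 0.00, edgeR adjusted p = 0.15), and all 7 HFD+veh animals were below the ND+veh median. Without ND+veh replicate 4, whose 574.0 CPM was the lowest Fabp1 level of all libraries, the value was -0.67 (edgeR adjusted p = 0.0297). Slc27a4 differed by -0.37 (95% interval -0.65 to -0.09, edgeR adjusted p = 0.0573) and was called in 5 of 15 fits without 1 library, those that left out ND+veh replicate 4 or 8 or HFD+veh replicate 1, 2 or 7. Slc27a2 differed by -0.26 (95% interval -0.60 to 0.08) and Fabp2 by 0.32 (95% interval -0.07 to 0.71). Fabp5 differed by -0.84 (95% interval -1.82 to 0.13, edgeR adjusted p = 0.211). It was called without HFD+veh replicate 6, its highest HFD+veh animal, at -1.44 (edgeR adjusted p = 0.0406).

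**Figure D2:**
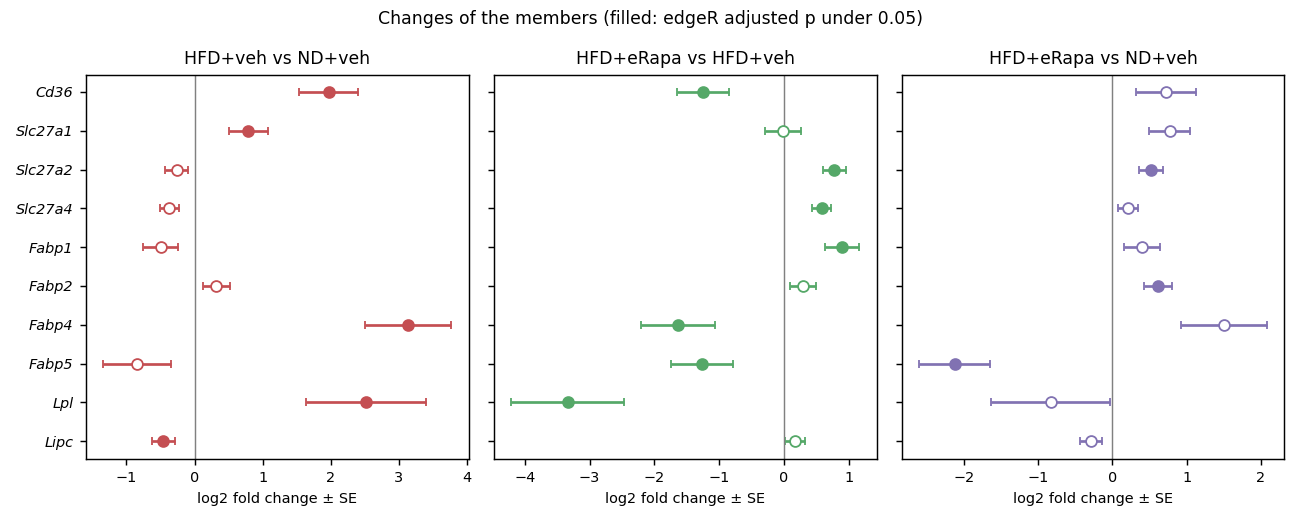
Log2 fold change of each member in the 3 comparisons, with bars of ± 1 SE and filled symbols for edgeR adjusted p under 0.05. Fabp4 (3.14), Lpl (2.52) and Cd36 (1.97) lie farthest to the right in HFD+veh against ND+veh, and Lpl (-3.34) farthest to the left in HFD+eRapa against HFD+veh.

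The second comparison, HFD+eRapa against HFD+veh, asked whether rapamycin altered these genes on the high-fat diet. Slc27a2, Slc27a4 and Fabp1 were higher with eRapa, by 1.72, 1.49 and 1.87 times. Lpl, Cd36, Fabp4 and Fabp5 were lower, and the ratio of the HFD+veh mean to the HFD+eRapa mean was 10.2 for Lpl, 2.37 for Cd36, 3.12 for Fabp4 and 2.42 for Fabp5. That made 7 of 10 members called, 3 higher and 4 lower, where 32.0% of all genes tested were called, 10.9% higher and 21.1% lower. The median log2 fold change was 0.08 over the members and -0.04 over all genes. Of the marker lists, 15 of 16 endothelial, 14 of 16 macrophage and 10 of 10 stellate cell markers were called lower and 2 of 9 hepatocyte markers higher. With the macrophage score as a covariate 1 member was called, Slc27a2, where 6.51% of all genes were called. With the endothelial score 0 members were called by edgeR, the only tool run with that score, and 4 had an unadjusted p under 0.05 (Slc27a2, Fabp2, Slc27a4 and Fabp1). In that fit 6.15% of all genes were called.

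Slc27a2 (ENSMUSG00000027359, chromosome 2, 126552407 to 126588243, plus strand) encodes a transport protein of liver and kidney that also activates very long-chain fatty acids. It overlaps the antisense gene Gm26697. Its levels were 474.5, 1039 and 1455 CPM in HFD+veh and 1463, 1709 and 1772 CPM in HFD+eRapa. All 9 HFD+eRapa animals exceeded all 7 HFD+veh animals, the only member without overlap between groups, which held for 2.59% of all genes in this comparison. The spread was small with eRapa, with a coefficient of variation of 6.42% against 36.3% in HFD+veh. Slc27a2 rose by 0.78 on the log2 scale (SE 0.17, edgeR adjusted p = 0.00222). It was called in all 16 fits that left out 1 library, with 0.68 to 0.91. With the macrophage score as a covariate it was 0.58 (edgeR adjusted p = 0.0437), with the endothelial score 0.55 (edgeR adjusted p = 0.0547) and with the stellate cell score, an alternative added after the data were seen, 0.46 (edgeR adjusted p = 0.131).

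Slc27a4 (ENSMUSG00000059316, chromosome 2, 29802634 to 29817522, plus strand), the main transport protein of this family in the intestine, had 15.7, 31.6 and 41.0 CPM in HFD+veh and 36.3, 47.7 and 54.5 CPM in HFD+eRapa. With eRapa 8 of 9 animals lay above every HFD+veh animal, the exception being replicate 2. The log2 fold change was 0.58 (SE 0.14, edgeR adjusted p = 0.00409), and 0.49 without ND+veh replicate 4 and HFD+veh replicate 6. Fabp1 (ENSMUSG00000054422, chromosome 6, 71199827 to 71205023, plus strand), the liver fatty acid binding protein, had 731.8, 1206 and 1617 CPM in HFD+veh and 1213, 2285 and 3897 CPM in HFD+eRapa. Here 7 of 9 eRapa animals exceeded all HFD+veh animals. Its log2 fold change was 0.90 (SE 0.26, edgeR adjusted p = 0.00992). Both genes were called in all 16 fits without 1 library and in none of the fits with a marker score, where Slc27a4 ranged from 0.32 to 0.38 and Fabp1 from 0.66 to 0.72.

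Lpl fell from 9.18, 150.4 and 603.7 CPM in HFD+veh (lowest, median and highest) to 2.93, 16.5 and 46.5 CPM in HFD+eRapa. Every eRapa animal was under the HFD+veh median, and 4 were under the lowest HFD+veh animal. On the log2 scale the difference was -3.34 (SE 0.87, edgeR adjusted p = 0.00613), the largest of any member in any comparison. It was called in all 16 fits without 1 library, with -3.62 to -2.66. With a marker score as a covariate it was 0.05 (macrophage), 0.19 (endothelial) and 0.54 (stellate cell), none of them called.

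Cd36 was at 86.5, 190.3 and 381.9 CPM in HFD+eRapa, so that all 9 animals lay under the HFD+veh median of 390.7 CPM. Cd36 differed by -1.25 on the log2 scale (SE 0.40, edgeR adjusted p = 0.0216). This fall depended on a single animal, because without HFD+veh replicate 6 it was -0.76 (edgeR adjusted p = 0.146). Fabp4 had 1.52, 4.82 and 15.5 CPM with eRapa, and differed by -1.64 on the log2 scale (SE 0.57, edgeR adjusted p = 0.0316). Without HFD+veh replicate 6 it was -1.20 (edgeR adjusted p = 0.132), and the call was also lost without HFD+veh replicate 3 or 4 or HFD+eRapa replicate 3, 5, 6, 8 or 9. With marker scores as covariates Cd36 ranged from -0.02 to 0.21 and Fabp4 from 0.14 to 0.25, none of them called.

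Fabp5 (ENSMUSG00000027533, chromosome 3, 10012548 to 10016607, plus strand), the epidermal fatty acid binding protein, had 3.17, 10.2 and 49.5 CPM in HFD+veh and 3.91, 6.01 and 16.3 CPM in HFD+eRapa. Its log2 fold change was -1.27 (SE 0.48, edgeR adjusted p = 0.0471), and 8 of 9 eRapa animals were under the HFD+veh median. Without HFD+veh replicate 6 the value was -0.69 (edgeR adjusted p = 0.268), and the call was also lost without HFD+veh replicate 3 or 4 or any HFD+eRapa animal but replicate 5. Over the 12 alternatives other than removal of 1 library, marker scores included, Fabp5 ran from -1.33 to -0.66 and was called in 3. The other 3 members were not called. Slc27a1 differed by -0.02 (95% interval -0.57 to 0.54), Lipc by 0.17 (95% interval -0.14 to 0.49) and Fabp2 by 0.29 (95% interval -0.09 to 0.67).

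In the last comparison, of HFD+eRapa with ND+veh, the mice differed in both diet and drug. Slc27a2 and Fabp2 were higher in HFD+eRapa and Fabp5 was lower, 3 of 10 members, where 13.5% of all genes tested were called, 6.93% higher and 6.54% lower. In 0 members were the animals of both groups free of overlap, which held for 3.37% of all genes. The median log2 fold change was 0.46 over the members and -0.03 over all genes. Of 16 macrophage markers, 0 were called between these groups by edgeR, DESeq2 or limma, and 0 had an unadjusted p under 0.05 in edgeR. Of 16 endothelial markers 1 was lower, and of 10 stellate cell markers 5 were lower.

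Fabp5 showed the fall that every alternative run left past the threshold. The ND+veh animals had 4.34, 28.6 and 54.4 CPM as lowest, median and highest level, and every HFD+eRapa animal, at 16.3 CPM or below, was under the ND+veh median. The overlap came from ND+veh replicate 4, whose 4.34 CPM was far below the other 7 ND+veh animals at 20.01 CPM or above. Fabp5 differed by -2.12 on the log2 scale (SE 0.48, edgeR adjusted p = 0.00393), and it was called in all 29 alternatives run, from -2.37 to -1.88. With the macrophage score as a covariate it was -2.09 and with the endothelial score -2.04.

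Fabp2 (ENSMUSG00000023057, chromosome 3, 122895072 to 122899506, plus strand), the intestinal fatty acid binding protein, overlaps the antisense gene 4933405D12Rik. It had 47.7, 74.5 and 134.2 CPM in ND+veh and 59.1, 134.1 and 161.7 CPM in HFD+eRapa. The log2 fold change was 0.61 (SE 0.19, edgeR adjusted p = 0.0313), with 8 of 9 eRapa animals above the ND+veh median. Replicate 9 was the lowest eRapa animal by a wide margin. Enterocyte markers stayed at or below 0.756 CPM in all libraries. Slc27a2 had 861.5, 1171 and 1473 CPM in ND+veh, and all 9 HFD+eRapa animals lay above that median. Its log2 fold change was 0.52 (SE 0.16, edgeR adjusted p = 0.0351). Both calls depended on the animals included, as Fabp2 was called in 10 and Slc27a2 in 6 of 17 fits without 1 library. Slc27a2 lost its call without ND+veh replicate 1, 2, 3, 4 or 8 or HFD+eRapa replicate 1, 2, 3, 5, 6 or 8. Fabp2 lost its call without ND+veh replicate 1, 2, 3, 4 or 6 or HFD+eRapa replicate 2 or 3.

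Cd36, Fabp4 and Slc27a1 lay above ND+veh in HFD+eRapa without passing the threshold in edgeR. On the log2 scale the differences were 0.72 for Cd36 (95% interval -0.05 to 1.50, edgeR adjusted p = 0.257), 1.50 for Fabp4 (95% interval 0.36 to 2.64, edgeR adjusted p = 0.0919) and 0.77 for Slc27a1 (95% interval 0.23 to 1.32, edgeR adjusted p = 0.0684). With the macrophage score as a covariate these 3 genes were called higher, at 0.92, 1.95 and 0.79. Without a covariate, Fabp4 (DESeq2 adjusted p = 0.0306) and Slc27a1 (DESeq2 adjusted p = 0.0407) passed the threshold in DESeq2, and Cd36 (DESeq2 adjusted p = 0.188) did not. For Slc27a1, 8 of 9 HFD+eRapa animals lay above every ND+veh animal, and without replicate 2, the lowest of them, the value was 0.88 (edgeR adjusted p = 0.0276). Lpl differed by -0.83 (95% interval -2.40 to 0.75), Lipc by -0.29 (95% interval -0.59 to 0.01), Fabp1 by 0.40 (95% interval -0.08 to 0.87) and Slc27a4 by 0.21 (95% interval -0.06 to 0.47).

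**Figure D3:**
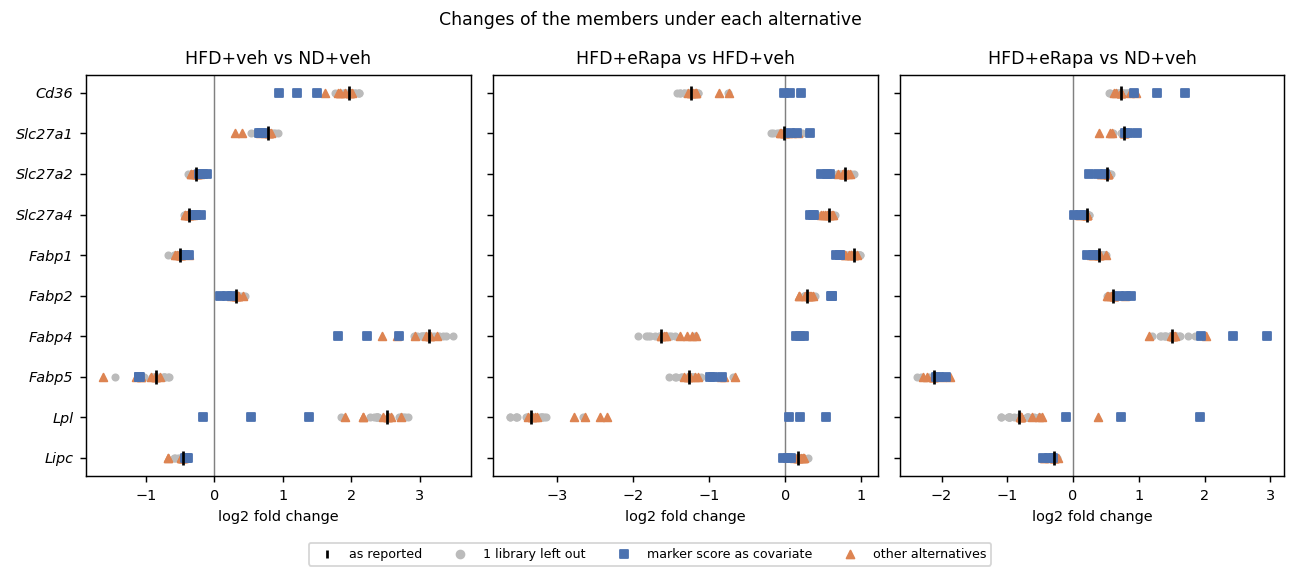
Log2 fold change of each member as reported (black bar) and under each alternative, with grey circles for fits without 1 library, blue squares for marker scores as covariates and orange triangles for the rest. In HFD+eRapa against HFD+veh the squares for Cd36, Fabp4 and Lpl lie between -0.02 and 0.54. Those for Fabp5, Slc27a2, Slc27a4 and Fabp1 stay on the side of the reported value, with Fabp5 at -0.66 or below and Slc27a4 at 0.32 or above.

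The members did not all follow the macrophage marker level alike. Lpl was low in the animals with the lowest sums and highest in the animal with the highest. The HFD+eRapa animal with the lowest macrophage sum (replicate 6, 20.1 CPM) had 2.93 CPM of Lpl, the ND+veh animal with the lowest (replicate 1, 52.6 CPM) had 2.67, and HFD+veh replicate 6, with the highest (6280 CPM), had 603.7. Cd36 and Fabp4 showed a like order within HFD+veh, where the 2 animals with the lowest macrophage sums (replicates 1 and 2, 200 and 204 CPM) had the lowest Cd36 levels, 174.5 and 179.8 CPM. Fabp5 was likewise lowest in these 2 animals of HFD+veh, at 3.86 and 3.17 CPM, and highest in replicate 6, at 49.5 CPM. In ND+veh, by contrast, replicate 1 had both the lowest macrophage sum and the highest Fabp5 level, 54.4 CPM. Slc27a2 and Slc27a4 ran the other way in HFD+veh, with their lowest levels, 474.5 and 15.7 CPM, in replicate 6.

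**Figure D4:**
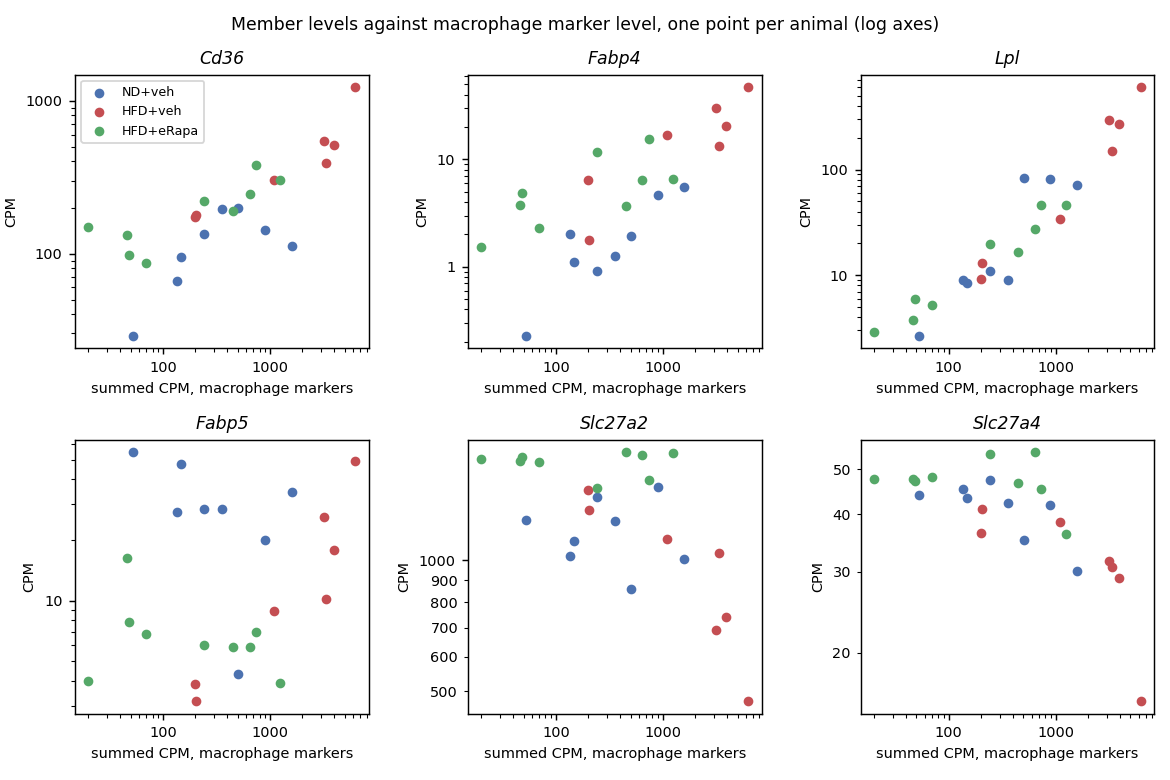
CPM of 6 members against the summed CPM of 16 macrophage markers, with a point per animal and log axes. Lpl spans 2.67 to 603.7 CPM and is highest at the highest marker sum. Fabp5 is also highest there among HFD+veh animals (49.5 CPM), but among ND+veh animals it is highest (54.4 CPM) at the lowest marker sum of that group (52.6 CPM).

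Over all 24 libraries, the log2 levels of Slc27a2 and Slc27a4 correlated at Pearson r = 0.84, those of Cd36 and Fabp4 at 0.85 and those of Cd36 and Lpl at 0.81. After group means were removed the values were 0.74, 0.73 and 0.83. Fabp5 correlated with Cd36 at -0.14 and with Fabp4 at -0.10, and after group means were removed at 0.13 and 0.31. Among all genes tested, those most like Slc27a2 were Acadvl (r = 0.947), which acts in mitochondrial fatty acid oxidation, Dhdh (0.946) and Pccb (0.945), a subunit of propionyl-CoA carboxylase. Those most like Slc27a4 were Alad, Tysnd1 and Akap1 (0.939 to 0.942), and those most like Fabp1 were Sod1 (0.915), Mrpl9 and Cnpy2. Lpl was most like Abcg1 (0.977), a cholesterol exporter, Sirpa (0.976), a receptor of myeloid cells, and Msn (0.974). Fabp4 was most like Spp1, Anxa5 and Rsu1 (0.889 to 0.917), and Cd36 most like Rtn4, Tm4sf1 and Hfe (0.897 to 0.921). For Lipc they were Ces1c, Pemt and Slc6a13 (0.903 to 0.947), and for Fabp2 Dnajc19, Syap1 and Ndufs4 (0.845 to 0.877). The best matches of Fabp5 (Pltp, Cd9 and Cnp, 0.757 to 0.768) and Slc27a1 (Cabin1, Tubgcp2 and Ptk2b, 0.755 to 0.758) were weaker. These correlations share the libraries, their depth and their mix of cells, and they describe likeness only.

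PPARα, a receptor that fatty acids activate, pairs with RXR on a direct repeat of AGGTCA elements spaced by 1 base, and Ppara and Rxra are among the regulators reported below. RefSeq promoter windows (GRCm38.p6) were matched for 7 of the 10 members, and Fabp4, Fabp5 and Lpl were not matched. The 250 bases before each start were searched on both strands for the repeat (AGGNCA, then N, then AGGTCA), which lay in 27 of 32851 promoters (0.0822%), and for the element AGGTCA, which lay in 4607 (14.0%). The element can be part of the repeat. Promoters of Fabp1 and Slc27a4, which rose with eRapa, and of Cd36, which rose with diet, are shown 5′ to 3′ on the gene's strand, with matches in capitals. The Fabp1 sequence is shown for 198 of the 250 bases searched, up to an annotated exon of the gene.
Fabp1, chr6:71199629-71199826, plus strand: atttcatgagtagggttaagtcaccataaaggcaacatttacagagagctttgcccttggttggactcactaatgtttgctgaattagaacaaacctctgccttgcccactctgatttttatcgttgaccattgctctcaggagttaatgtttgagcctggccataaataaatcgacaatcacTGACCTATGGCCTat
Cd36, chr5:17835897-17836146, minus strand: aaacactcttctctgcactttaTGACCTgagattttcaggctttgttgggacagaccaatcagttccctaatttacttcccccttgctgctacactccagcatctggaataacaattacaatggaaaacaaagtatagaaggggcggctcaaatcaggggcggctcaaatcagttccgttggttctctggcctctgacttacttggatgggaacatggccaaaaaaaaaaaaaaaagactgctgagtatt
Slc27a4, chr2:29802384-29802633, plus strand: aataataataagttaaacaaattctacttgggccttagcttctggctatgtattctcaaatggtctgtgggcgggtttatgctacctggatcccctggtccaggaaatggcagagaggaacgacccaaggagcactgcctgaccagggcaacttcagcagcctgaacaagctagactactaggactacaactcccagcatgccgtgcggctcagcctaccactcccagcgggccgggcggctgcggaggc
The Fabp1 window holds the repeat on the opposite strand, 67 bases before the RefSeq start, and it is the only member window that does. A further element lies 9 bases before that start, beyond the bases shown. The Cd36 window lies inside the annotated gene, before a RefSeq start downstream of the gene's 5′ end. It holds a single element on the opposite strand, 228 bases before that start, and the Slc27a4 window holds neither. A window of Slc27a2 also holds the element, and a second window of Lipc holds 2. A match of letters is a description of the sequence and does not show binding.

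Around the members, 66 further genes of fatty acid handling were listed in 6 groups, of which 57 passed the filter. With diet 11 of them were called, of which 5 were higher and 6 lower in HFD+veh, where 25.9% of all genes were called. With eRapa on high-fat diet the number was 16, with 9 higher and 7 lower, beside 32.0% of all genes. Between HFD+eRapa and ND+veh it was 12, with 7 higher and 5 lower, beside 13.5% of all genes. The counts of the smaller gene groups below are to be read against the same shares.

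Among the genes that control lipases, 2 of 10 were called in each of the first 2 comparisons, beside 25.9% and 32.0% of all genes. Gpihbp1, which holds lipoprotein lipase on capillary endothelium, had 10.5 ± 5.19 CPM in ND+veh (SD, n = 8), 21.6 ± 11.7 in HFD+veh (n = 7) and 9.31 ± 3.52 in HFD+eRapa (n = 9). It rose with diet (log2 fold change 1.04, edgeR adjusted p = 0.0382) and was lower with eRapa (-1.21, edgeR adjusted p = 0.0113). Angptl4, a secreted inhibitor of lipoprotein lipase, went the opposite way, with 117 ± 73.4, 58.6 ± 17.6 and 122 ± 38.3 CPM. On the log2 scale it fell by 1.00 with diet (edgeR adjusted p = 0.035) and was 1.06 higher with eRapa (edgeR adjusted p = 0.0189). Angptl8, which takes part in lipase inhibition, was called lower between HFD+eRapa and ND+veh (-1.83, edgeR adjusted p = 0.0366). Of 16 endothelial markers 3 were higher with diet and 15 lower with eRapa, and with the endothelial score as a covariate Gpihbp1 differed by 0.04 between HFD+eRapa and HFD+veh.

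Among other intracellular lipid-binding proteins, 7 of 14 passed the filter. Scp2, sterol carrier protein, was by far the most abundant called gene of the list, with 3680 ± 646 CPM in ND+veh, 3660 ± 877 in HFD+veh and 6480 ± 844 in HFD+eRapa. It was 0.82 higher on the log2 scale with eRapa than in either other group (edgeR adjusted p = 0.000419 against HFD+veh and 0.000282 against ND+veh), and its eRapa range of 5340 to 8110 CPM overlapped neither. Groups free of overlap were found for 2.59% of all genes against HFD+veh and 3.37% against ND+veh. Fabp7, the brain fatty acid binding protein, was scarce, at 1.71 ± 1.67, 17.0 ± 20.4 and 3.35 ± 4.17 CPM. It rose with diet (3.31, edgeR adjusted p = 0.0106) and was lower with eRapa (-2.34, edgeR adjusted p = 0.0298), though with the macrophage and endothelial scores as covariates the latter value was 0.63 and 0.86. Acbd5, a peroxisomal acyl-CoA binding protein, exceeded its ND+veh level by 0.41 on the log2 scale in HFD+eRapa (edgeR adjusted p = 0.0424).

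Of the acyl-CoA synthetases and remaining Slc27 genes, 6 of 8 were tested. Acsl1, the main long-chain acyl-CoA synthetase of liver, had 617 ± 226 CPM in HFD+veh and 1230 ± 163 CPM in HFD+eRapa. It was 1.00 higher on the log2 scale with eRapa (edgeR adjusted p = 0.00118), and the ranges, 325 to 920 and 1010 to 1480 CPM, did not overlap. The same held for 2.59% of all genes in this comparison. Acsl3 was lower than ND+veh in both high-fat groups, by -0.35 in HFD+veh and -0.45 in HFD+eRapa. Slc27a5, the liver transport protein that also activates bile acids and that was singled out after its values were seen, had 1080 ± 268, 958 ± 392 and 989 ± 221 CPM and was called in none of the 3 comparisons. Unlike Slc27a2, it differed by 0.05 on the log2 scale between HFD+eRapa and HFD+veh.

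Of the membrane proteins that aid uptake, 6 of 10 were called in HFD+eRapa against HFD+veh, 2 higher and 4 lower, beside 32.0% of all genes. Cav1, the coat protein of caveolae, had 0.972 ± 0.488 CPM in ND+veh, 1.67 ± 1.37 in HFD+veh and 13.9 ± 11.1 in HFD+eRapa. The eRapa animals spread from 1.42 to 29.8 CPM, and the log2 fold changes were 3.04 against HFD+veh (edgeR adjusted p = 0.00151) and 3.82 against ND+veh (edgeR adjusted p = 0.000203). Its caveolar partners Cavin1 and Cavin2 went the other way and were lower with eRapa, by -1.26 and -1.68, as was the kinase Lyn (-1.63, edgeR adjusted p = 0.00222). Cavin2 and Lyn had risen with diet, by 1.33 and 1.50. In the same comparison 15 of 16 endothelial and 14 of 16 macrophage markers were lower. With the endothelial score as a covariate Cavin1, Cavin2 and Lyn differed by -0.08, -0.14 and -0.40 and with the macrophage score by -0.19, -0.18 and -0.43, none of them called. Fyn and Got2, named after their values were seen, were the other 2 called genes, at -1.74 and 0.57. Compared with ND+veh, Zdhhc4 and Lypla1, enzymes that add and remove palmitate, were 0.37 and 0.33 higher in HFD+eRapa (edgeR adjusted p = 0.0412 and 0.0422). Of the 10 genes 3 were called in that comparison by edgeR, beside 13.5% of all genes, 4 by DESeq2 and 1 by limma.

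Of 9 lipoprotein receptors, 2 were called with diet, both lower, beside 25.9% of all genes. Sdc1, named after its values were seen, went the other way with diet without passing the threshold (0.56, edgeR adjusted p = 0.0699). Lsr, the lipolysis-stimulated lipoprotein receptor, fell from 178 ± 28.4 CPM in ND+veh to 88.3 ± 31.7 in HFD+veh (log2 fold change -1.01, edgeR adjusted p = 0.00189) and was at 96.0 ± 18.3 CPM in HFD+eRapa, which differed from ND+veh by -0.89 (edgeR adjusted p = 0.00236). Scarb1, the receptor for high-density lipoprotein, fell by 0.52 with diet (edgeR adjusted p = 0.0296). Between HFD+eRapa and HFD+veh 0 of the 9 receptors were called by edgeR and DESeq2 and 1 by limma, and 2 had an unadjusted p under 0.05 in edgeR.

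Of 15 regulators, 2 were called lower with diet, beside 25.9% of all genes. With eRapa on high-fat diet 5 were called by edgeR, 4 higher and 1 lower, beside 32.0% of all genes. DESeq2 called 5 there as well. By limma on log2(FPKM + 0.1) or log2(FPKM + 1) it was 2, beside 23.8% and 24.5% of all genes. Ppara had 73.4 ± 19.4 CPM in ND+veh, 57.4 ± 32.6 in HFD+veh and 120 ± 21.3 in HFD+eRapa. It was higher with eRapa by 1.06 against HFD+veh (edgeR adjusted p = 0.00236) and by 0.71 against ND+veh (edgeR adjusted p = 0.0363). Its partner Rxra was 0.55 higher with eRapa than in HFD+veh (edgeR adjusted p = 0.0364) and the aryl hydrocarbon receptor gene Ahr 0.69 higher (edgeR adjusted p = 0.0114). Nr1i2 (named after its values were seen) was 0.41 higher (edgeR adjusted p = 0.0444). The coactivator gene Ppargc1a was lower (-0.89, edgeR adjusted p = 0.00525). Ppard, which encodes another PPAR isotype, fell from 25.4 ± 10.4 CPM in ND+veh to 8.18 ± 3.73 in HFD+veh and 6.11 ± 2.32 in HFD+eRapa (-1.63 and -2.05, edgeR adjusted p = 0.000513 and 1.39e-05). Mlxipl, the carbohydrate response factor ChREBP, fell by 1.25 with diet (edgeR adjusted p = 0.0267).

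**Figure D5:**
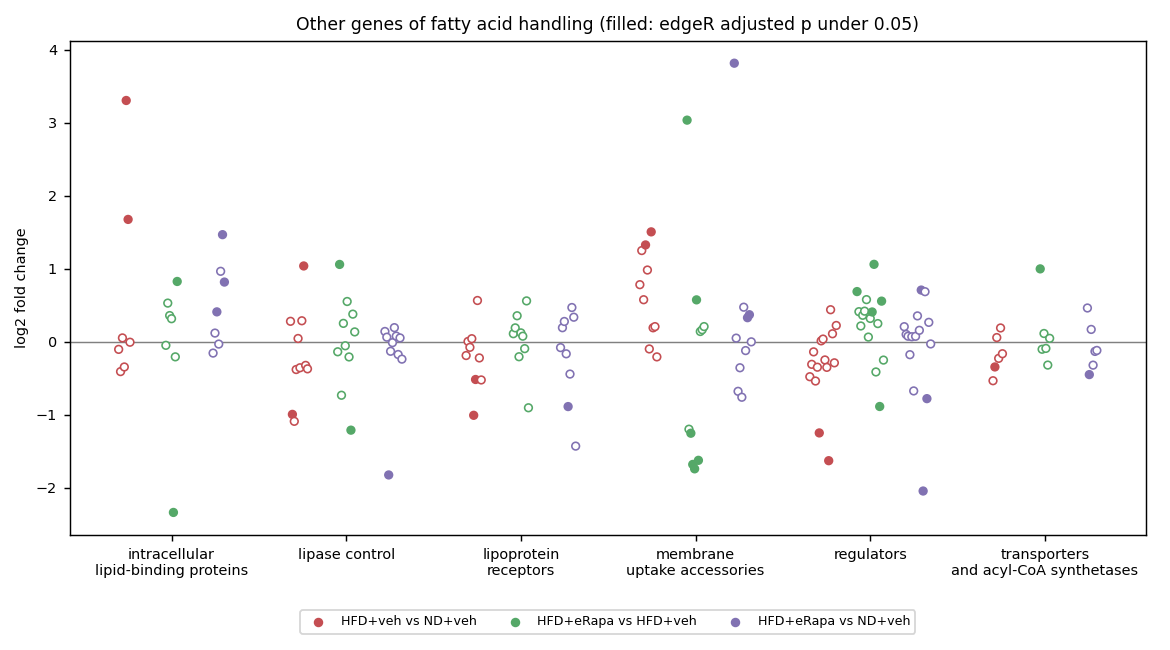
Log2 fold change of the 57 tested genes of fatty acid handling, by gene group on the horizontal axis and by comparison in colour, with filled symbols for edgeR adjusted p under 0.05. Cav1 stands highest in both comparisons with HFD+eRapa (3.04 and 3.82), Fabp7 highest in HFD+veh against ND+veh (3.31).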

How the data were processed

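Per the labels and the study's methods, polyA RNA from perfused hepatocytes was sequenced, and all 24 libraries carry 1 batch label. Reads were aligned by the authors to mm10 and Gencode M23 with multi-pass STAR and filtered with SAMtools 1.1.0. The deposited counts are raw whole reads per gene from HTSeq 0.11.2, with the strand setting not given in the sources used here. The deposited FPKM values were made by the authors with Cufflinks. Total counts ran from 17.7 to 25.9 M, and no 2 libraries of the same group agreed within sampling noise (chi-square per degree of freedom of at least 12.3).

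Counts were fitted with edgeR 4.0.16 in R 4.3.3 (filterByExpr, TMM, robust glmQLFit, glmQLFTest) in a single model of 3 groups without covariates, and p-values were adjusted by Benjamini-Hochberg over 13847 genes. SE was taken as the ratio of the log2 fold change to the root of the F statistic, and a 95% interval is ± 1.96 SE. CPM are scaled by TMM, and correlations use log2 CPM with a prior count of 2. Marker scores are means of z-scored log2 CPM. Coordinates come from Gencode M21 (GRCm38, the assembly of mm10). On counts simulated for the comparison of HFD+veh with ND+veh, 121 of 200 genes changed by a log2 fold change of 1 among 13694 were recovered by edgeR, and 3.97% of its calls were false.

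The members and gene lists were chosen with earlier results of these data known. All members were named, and of each further list up to 4 called genes with the smallest adjusted p, of which 1 gene is not reported here. Lists of lymphocyte, neutrophil and cholangiocyte markers had at most 43.8, 43.6 and 23.0 CPM in any library. Alternatives were DESeq2 1.42.0, its size factors in edgeR, no filter, at least 10 counts in every library, fits of the groups compared, the replicate number as a block, marker scores as covariates, limma 3.58.1 on log2(FPKM + 0.1) and log2(FPKM + 1), and each library left out.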

Additional observations from a re-analysis of the deposited data

Results flagged for a closer look

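Of 42 groups of animals examined (10 members and 4 marker sums in 3 groups), 8 held an animal that stood apart from the others by Dixon's criterion, where chance gives about 2.1. ND+veh replicate 4 accounted for 4 of them. Its log2 CPM was 9.17 for Fabp1 (other ND+veh animals 10.54 to 11.32), 2.15 for Fabp5 (others 4.33 to 5.77) and 6.83 for Lipc (others 7.53 to 7.71), and its summed hepatocyte markers were at 15.85 (others 16.81 to 17.34). In this animal 3 members thus lay low together with the hepatocyte marker sum. HFD+veh replicate 6 was lowest for Slc27a4, at a log2 CPM of 3.98 against 4.86 to 5.36 in the others. In HFD+eRapa, replicate 2 was lowest for Slc27a4 (5.18, others 5.51 to 5.77), replicate 9 lowest for Fabp2 (5.89, others 6.92 to 7.34) and replicate 5 highest for Fabp5 (4.03, others 2.00 to 2.99).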

How the results depend on the processing

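Cd36 in HFD+veh against ND+veh and Fabp5 in HFD+eRapa against ND+veh were called under every alternative run. Fabp4 in HFD+veh against ND+veh was called under all 26 alternatives that tested it. With at least 10 counts in every library it was not tested. Of the members' other calls, each was lost under at least 2 alternatives. Members called in HFD+veh against ND+veh (5 as reported) were 2 with no expression filter, with only the groups compared, and with the endothelial or the macrophage score as a covariate, 3 with the replicate block and with limma on log2(FPKM + 0.1) or log2(FPKM + 1), and 2 to 6 without 1 library. The count was 2 without ND+veh replicate 1, 2, 3, 5 or 7 or HFD+veh replicate 3 or 4, and 3 without ND+veh replicate 6 or HFD+veh replicate 6. In HFD+eRapa against HFD+veh (7 as reported) they were 4 with no expression filter and with ND+veh replicate 4 and HFD+veh replicate 6 both left out, 3 with the replicate block, 1 with the macrophage score, 0 with the endothelial or the stellate cell score (4 and 3 members at an unadjusted p under 0.05), and 4 to 7 without 1 library, with 4 reached without HFD+veh replicate 6. In HFD+eRapa against ND+veh (3 as reported) they were 5 with DESeq2 and with the endothelial score, 6 with the macrophage score, 7 with the stellate cell score, 1 with limma on either scale, and 1 to 3 without 1 library, with 1 reached without ND+veh replicate 1, 2, 3 or 4 or HFD+eRapa replicate 3. The share of all genes called moved too. In HFD+veh against ND+veh (25.9% as reported) it was 9.62% with no filter, 17.4% with the groups compared, 15.5% and 8.85% with the endothelial and macrophage scores and 17.8% with the block. Over the alternatives that kept all libraries it ran from 4.92% to 34.1% in HFD+eRapa against HFD+veh (32.0% as reported) and from 4.56% to 24.4% in HFD+eRapa against ND+veh (13.5% as reported). Removal of both animals and the stellate cell score were chosen after seeing the data.

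Further fatty acid genes called in HFD+veh against ND+veh (11 as reported) were 6 with no expression filter, with only the groups compared and with both animals left out, 7 with the endothelial score, 4 with the macrophage score, and 6 to 17 without 1 library. In HFD+eRapa against HFD+veh (16 as reported) they were 10 with the replicate block, 9 with the endothelial or macrophage score, 8 with the stellate cell score, and 13 to 21 without 1 library. In HFD+eRapa against ND+veh (12 as reported) they were 7 with no expression filter, 19 with the macrophage score, 22 with the stellate cell score, and 7 to 12 without 1 library.

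Signs turned in HFD+eRapa against HFD+veh for Cd36 (0.06 endothelial, 0.21 stellate cell score), Fabp4 (0.20 endothelial, 0.14 macrophage, 0.25 stellate cell), Lpl (0.19, 0.05 and 0.54), Lipc (-0.03 stellate cell), Cavin1 (0.09 stellate cell), Fabp7 (0.86, 0.63 and 1.01) and Gpihbp1 (0.04 endothelial, 0.13 stellate cell), none of them called. Slc27a1, at -0.02 as reported, ran from -0.19 to 0.22 without 1 library, and was 0.03 with no filter, 0.00 with the groups compared, 0.15, 0.07 and 0.32 with the 3 scores, 0.16 and 0.09 with limma, and 0.02, 0.14 and 0.22 without HFD+veh replicate 2, 3 or 4 and 0.09, 0.01, 0.02 and 0.03 without HFD+eRapa replicate 2, 5, 6 or 8. Lpl turned to -0.16 in HFD+veh against ND+veh with the macrophage score, and in HFD+eRapa against ND+veh to 0.39 with the replicate block, 0.73 with the endothelial score and 1.92 with the stellate cell score, the last of them called (edgeR adjusted p = 0.00073). The cause of these changes was not tested.

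The replicate numbers belong to different animals. Same-numbered libraries, after group means were removed, correlated at a mean r of 0.316 (HFD+veh and ND+veh, 7 pairs), -0.245 (HFD+eRapa and HFD+veh, 7 pairs) and -0.203 (HFD+eRapa and ND+veh, 8 pairs). Of these libraries 2, 0 and 0 correlated best with their own number. Between HFD+veh and ND+veh 5 of 7 pairs exceeded 0.1, with values from -0.36 to 0.726. A mean over differently numbered pairs was not computed, so this check does not settle whether same-numbered libraries are alike. With the replicate block 3, 3 and 3 members were called, and in HFD+eRapa against HFD+veh Lpl (-2.35), Cd36 (-0.88), Fabp4 (-1.22) and Fabp5 (-1.16) were not. Libraries of 17.7 to 25.9 M counts left Fabp4 at 0.227 CPM in an ND+veh animal, so its lowest levels rest on few reads.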
